A study of Mus musculus with 4 samples.

Results

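The genes described here are 4 homeostatic chemokines, *Cxcl12*, *Cxcl13*, *Cxcl14* and *Ccl19*, and 3 atypical chemokine receptors, *Ackr1*, *Ackr3* and *Ackr4*. They were chosen by symbol and make up 7 of the 28692 genes counted in each library. MSC were sorted from the lamina propria of small intestine and colon of untreated female mice (strain label C57BL6/Nrj, 8 to 10 weeks old) and made up 1 group per intestine. Per the study's methods, colonic tissue also received dithiothreitol and was digested under a stirrer in place of a shaker, so that intestine and tissue handling cannot be told apart. Each intestine had 2 droplet libraries, from 2 experiments with 3 pooled mice each, which are called replicates 1 and 2 below. The muscle coat had been removed, and the sort kept live Itgβ1+ cells that lacked CD45, Ter119, CD31, EpCAM, L1CAM and BP3. BP3 is the product of *Bst1* and marks lymphoid tissue stroma, so stroma of that kind was depleted by the gate. The labels give no second line, clone or genotype.

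Homeostatic chemokines are made without inflammation and place leukocytes in tissues. CXCL12 acts through CXCR4 and retains haematopoietic and immune cells in their niches, CXCL13 acts through CXCR5 and draws B cells into follicles, and CCL19 acts through CCR7 and guides T cells and dendritic cells. CXCL14 is a broadly made epithelial and stromal chemokine. The atypical receptors bind chemokines without G protein signalling: ACKR3 removes CXCL12, ACKR4 removes CCL19, CCL21 and CCL25, and ACKR1 binds many inflammatory chemokines on venular endothelium and red cells.

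All 7 genes are protein coding (GRCm38 coordinates, from a GENCODE annotation that holds their gene IDs). *Cxcl12* lies at chr6:117168535-117181367 on the plus strand, *Cxcl13* at chr5:95956951-95961068 on the plus strand, *Cxcl14* at chr13:56288643-56296551 on the minus strand and *Ccl19* at chr4:42754525-42756577 on the minus strand. *Ackr1* (chr1:173331886-173333750, minus strand) and *Ackr3* (chr1:90203980-90216751, plus strand) share a chromosome, and *Ackr4* is at chr9:104084157-104126933 on the minus strand. The 250 bases before the RefSeq start of *Cxcl13* are printed because this gene changed in opposite directions in 2 FB classes. They span chr5:95956689-95956938 on the plus strand (RefSeq, GRCm38.p6), with the letters TATAAA in capitals:

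Cxcl13 promoter: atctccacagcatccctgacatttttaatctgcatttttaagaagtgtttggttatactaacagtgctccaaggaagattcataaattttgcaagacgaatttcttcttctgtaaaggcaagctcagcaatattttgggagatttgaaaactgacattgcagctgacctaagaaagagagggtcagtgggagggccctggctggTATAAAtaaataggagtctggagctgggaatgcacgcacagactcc

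The capitals begin 46 bases before the start. The same letters were in the windows of *Ackr3* and *Ackr4* and in 12.4% of 32851 promoters searched. A broad NF-κB motif, GGG and CC with any 5 bases between them, was searched on both strands and stood 63 bases before the *Cxcl13* start without overlapping TATAAA. It was also found before *Ackr4*, *Ccl19* and *Cxcl12*, and in 45.8% of all promoters.

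After filtering, 30685 cells were kept, 1828 and 14350 from the small intestine and 2399 and 12108 from the colon (replicates 1 and 2 in each pair, here and below). Libraries held 14341443 to 52269372 UMIs before filtering, and a cell of replicate 1 carried more UMIs (medians 6965 and 8810) than one of replicate 2 (2734.5 and 3878). Library pairs shared at most 69 barcodes. Clusters were named from marker genes and stand for cells like those named. Levels are given as counts of UMIs summed over the cells of a class in a library, as CPM of all UMIs of that class and library. Such a sum cannot tell fewer expressing cells from less RNA per cell, and intervals cover counting error only.

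The classes were PDGFRαhi FB (5427 cells, marked by *Pdgfra*, *Bmp3* and *Wif1*), CD81+ FB (5824 cells, *Cd81*, *Pi16* and *Grem1*), SMC (1462 cells), pericytes (279 cells) and the remaining FB clusters (16192 cells), called other FB. None of the markers of a class was at 0 in that class in any library. The summed PDGFRαhi FB markers were 2607 to 3980 CPM in PDGFRαhi FB and 313.5 to 554.7 CPM in other FB, and the CD81+ FB markers were 4525 to 6832 CPM in CD81+ FB and 1384 to 3278 CPM in other FB. Other FB is a residual class. Its largest small intestinal cluster (4428 cells) had the pericyte gene *Rgs5* among its 10 leading genes. None of its small intestinal clusters had an other FB marker there, and their marker scores (0.10 to 0.14) were under the naming limit of 0.25. A pair of its colonic clusters was led by immunoglobulin transcripts (*Igkc* up to 479.6 CPM) beside 11389 to 12826 CPM of the FB gene *Dcn*. A colonic cluster led by *Cxcl9* (642 cells) was kept in it, while a small intestinal one (273 cells) stayed unnamed. Endothelial, immune, plasma and interstitial cells were set apart and enter no test.

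*Cxcl12* was the most abundant of the 7 genes, with 152223 UMIs in the kept cells, and *Ccl19* the least, with 484. Of the 35 combinations of a gene and a class, 25 passed the filter on low counts. A change was called where the edgeR adjusted p was below 0.05 and the log2 fold change (log2FC) of colon over small intestine passed 1.5 up or down, the limits that the study used. By this rule 5 of the 25 were called, for 4 genes (*Cxcl12*, *Cxcl13*, *Cxcl14* and *Ackr4*), 2 of them up in colon and 3 up in small intestine. In PDGFRαhi FB 1 of 4 tested members was called, up in colon, beside 1.55% of all 11511 genes tested (0.808% up in colon, 0.738% up in small intestine). In CD81+ FB 1 of 7 was called, up in small intestine (0.919% of all genes, 0.332% up in colon and 0.586% up in small intestine), and likewise in other FB 1 of 7 (0.915% of all genes, 0.458% in each direction). In SMC 2 of 3 were called, 1 in each direction (1.81% of all genes, 0.55% up in colon and 1.26% up in small intestine). In pericytes 0 of 4 were called, 1 of them with an unadjusted p under 0.05. Of all 4934 genes tested there, edgeR called 0 (0%), DESeq2 called 3, and 110 had an unadjusted p under 0.05.

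**Figure D1:**
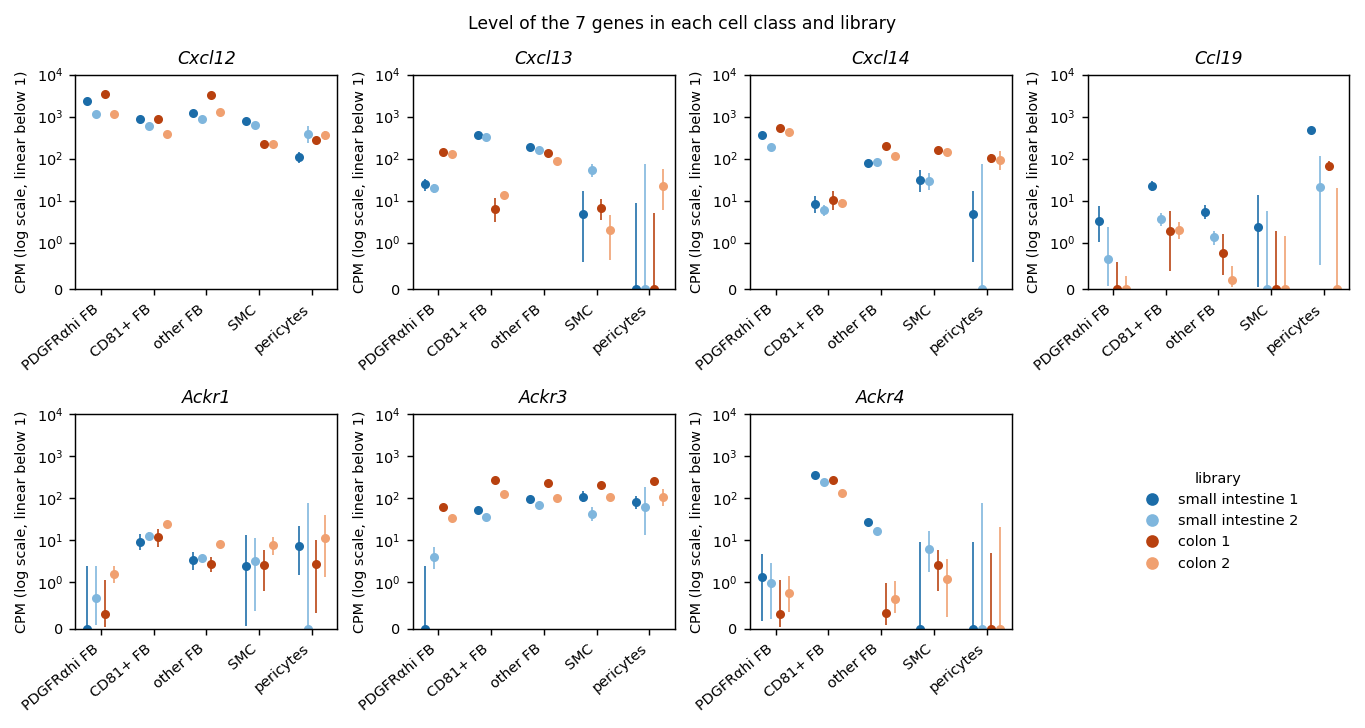
Level of each of the 7 genes (CPM on a log scale, linear below 1) in 5 classes and 4 libraries, with 95% exact Poisson intervals. *Cxcl13* was higher in colon among PDGFRαhi FB and lower in colon among CD81+ FB, and *Ackr4* was 130.8 to 351.8 CPM in CD81+ FB and at most 27.5 CPM in the remaining classes.

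*Cxcl13*, the B cell attractant, changed in opposite directions in the PDGFRαhi and CD81+ FB. In PDGFRαhi FB its level was 24.3 and 19.8 CPM in small intestine (37 and 60 UMIs), against 147.6 and 130.9 CPM in colon (932 and 1734 UMIs). Both colon libraries were above both small intestinal ones, and each pair lay close together. The log2FC was 2.81 (SE 0.27, edgeR adjusted p = 0.0244, n = 2 libraries per intestine). The call was lost without small intestine replicate 1 (2.94, adjusted p = 0.130) or replicate 2 (2.66, adjusted p = 0.182), where the lone library is assumed to vary like the others, and with doublets kept (2.12, adjusted p = 0.0850), which raised small intestine replicate 2 to 43.2 CPM.

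In CD81+ FB *Cxcl13* stood at 358.9 and 333.5 CPM in small intestine, and colon had 6.45 and 13.4 CPM (917 and 2736 against 10 and 135 UMIs). The groups were far apart, and the replicates of an intestine differed little beside that gap. The log2FC was −5.16 (SE 0.44, adjusted p = 0.0231), and it stayed called without any 1 of the 4 libraries (−5.89 to −4.81).

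In other FB the level of *Cxcl13* was 193.6 and 159.4 CPM in small intestine against 139.0 and 86.6 CPM in colon. The groups did not overlap, and the difference was not called (log2FC −0.70, SE 0.29, adjusted p = 0.487). Leaving out the small intestinal cluster with *Rgs5*, an alternative chosen after the data were seen, gave −0.90 (adjusted p = 0.357). With CD81+ FB and other FB summed into all FB except PDGFRαhi FB, the levels were 248.0 and 200.2 against 119.5 and 62.7 CPM (log2FC −1.41, SE 0.36, adjusted p = 0.302). None of the 7 genes was called in this sum by edgeR, in which 0.015% of 13314 genes were called, all of them up in small intestine. An unadjusted edgeR p under 0.05 was found for 4 of the 7, beside 1313 of the 13314 genes.

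The difference between these intestine effects was tested directly, with the library as a block. The effect on *Cxcl13* was larger in PDGFRαhi FB than in other FB by 3.54 (SE 0.20, adjusted p = 4.08e-11), a comparison in which 4.67% of all genes passed. The other class pairs were chosen after the values had been seen and were not run under the alternatives listed below. In CD81+ FB the effect was lower than in other FB by a log2 difference of −4.13 (SE 0.34, adjusted p = 0.00157, 3.16% of genes passing), and between PDGFRαhi FB and CD81+ FB it differed by 7.84 (SE 0.28, adjusted p = 1.02e-11, 6.14% of genes passing).

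Placing each cell by its own highest marker score, in place of its cluster, gave a different picture of *Cxcl13*. This gate put 47.7% of the MSC of a class in the class their cluster had, 55.8% of PDGFRαhi FB, 71.6% of CD81+ FB and 32.4% of other FB. In gated PDGFRαhi FB the levels were 31.4 and 96.1 CPM in small intestine against 143.5 and 132.9 CPM in colon (log2FC 1.18, adjusted p = 0.617). In gated CD81+ FB they were 361.4 and 279.2 against 211.5 and 36.2 CPM (−1.56, adjusted p = 0.782). The direction held in both classes, the colon libraries stayed on the same side of the small intestinal ones, and neither difference was called. The difference between the PDGFRαhi FB and other FB effects was 2.66 under the gate (adjusted p = 0.362) and 2.79 with doublets kept (adjusted p = 0.0755).

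**Figure D2:**
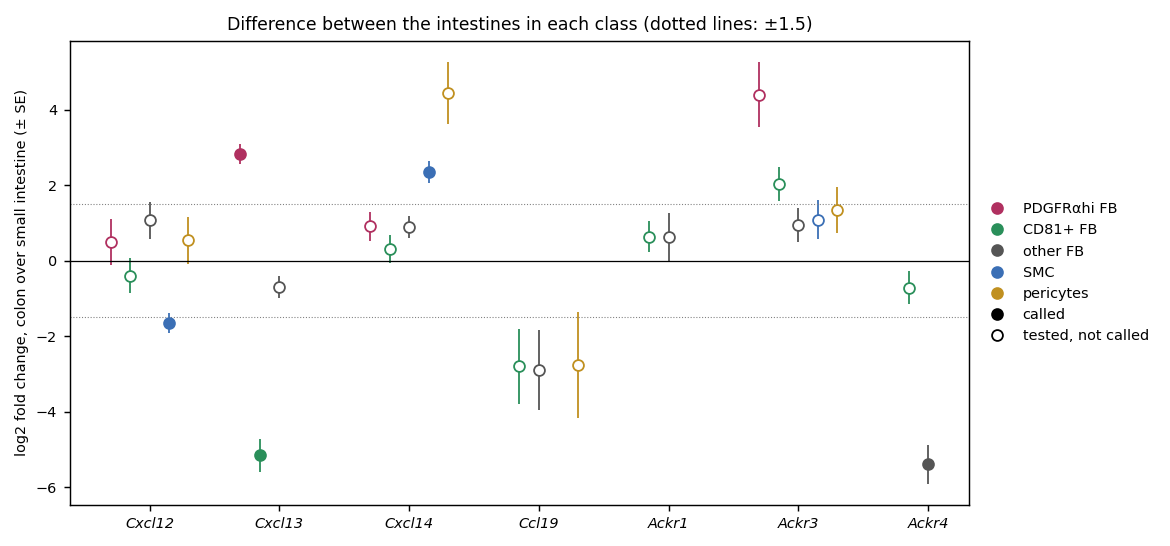
Log2 fold change of colon over small intestine (points, with SE bars) for each gene and class that was tested. Filled points passed the adjusted p and fold limits, dotted lines mark 1.5 in either direction, and *Cxcl13* stands at 2.81 in PDGFRαhi FB and at −5.16 in CD81+ FB.

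The share of cells with a *Cxcl13* UMI followed the levels. In PDGFRαhi FB it was 13.7% and 3.26% in small intestine, against 35.0% and 21.5% in colon, and with every cell thinned to 1000 UMIs it was 2.86% and 1.93% against 8.38% and 8.68%. In CD81+ FB it was 43.6% and 34.4% against 2.49% and 2.84%, and thinned 16.9% and 19% against 0% and 1.06%. As a background, endothelial cells had a *Cxcl13* UMI in 0 of 264 cells of small intestine replicate 1 (which allows up to 1.14%, median 4371.5 UMIs per cell) and in 0 of 176 cells of colon replicate 1 (up to 1.70%, median 5577.5 UMIs). Lymphatic endothelial cells had one in 7 of 155 and 7 of 35 cells of small intestine (17.7 and 76.3 CPM, medians 4663 and 3184 UMIs per cell) and in 0 of 63 cells of colon replicate 1, beside 2177 and 12369 CPM of *Dcn* in small intestine. The *Cxcl13* of small intestinal PDGFRαhi FB was above that of these lymphatic cells in replicate 1 (24.3 against 17.7 CPM). In replicate 2 it was below (19.8 against 76.3 CPM), where the lymphatic cells carried the 12369 CPM of *Dcn*. The median of CD81+ FB was 8872 UMIs in small intestine replicate 1 and 7432 in colon replicate 1. The share in colonic CD81+ FB of replicate 1 had a 95% interval of 0.813% to 5.71%, which holds the endothelial limit of 1.70% there.

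Few cells carried much of the *Cxcl13* RNA in replicate 1, and less of it in replicate 2. Cells with 10 or more *Cxcl13* UMIs numbered 23 and 42 in small intestinal CD81+ FB, where they held 61.7% and 21.9% of the class's *Cxcl13* UMIs, and 0 and 0 in colonic CD81+ FB. In PDGFRαhi FB the order was the other way, with 0 and 0 such cells in small intestine against 29 and 15 in colon. The colonic ones held 54.6% and 12.8% of the class's *Cxcl13* UMIs. The highest count in a cell was 107 UMIs in a small intestinal CD81+ FB and 55 in a colonic PDGFRαhi FB. Other FB had such cells in both intestines, 27 and 32 in small intestine (57.7% and 10.3% of the UMIs), 37 and 28 in colon (70.2% and 28.5%).

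By source, CD81+ FB held 44.2% and 37.0% of the *Cxcl13* UMIs of MSC in small intestine, but 0.453% and 3.67% in colon. PDGFRαhi FB held 1.78% and 0.811% in small intestine, but 42.2% and 47.2% in colon. Other FB held the largest share in each library, from 48.6% to 57.8%. These shares also move with the number of cells of each class that a library holds. SMC (2, 34, 13 and 5 UMIs) and pericytes (0, 0, 0 and 4 UMIs) had little *Cxcl13* and were not tested for it.

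**Figure D3:**
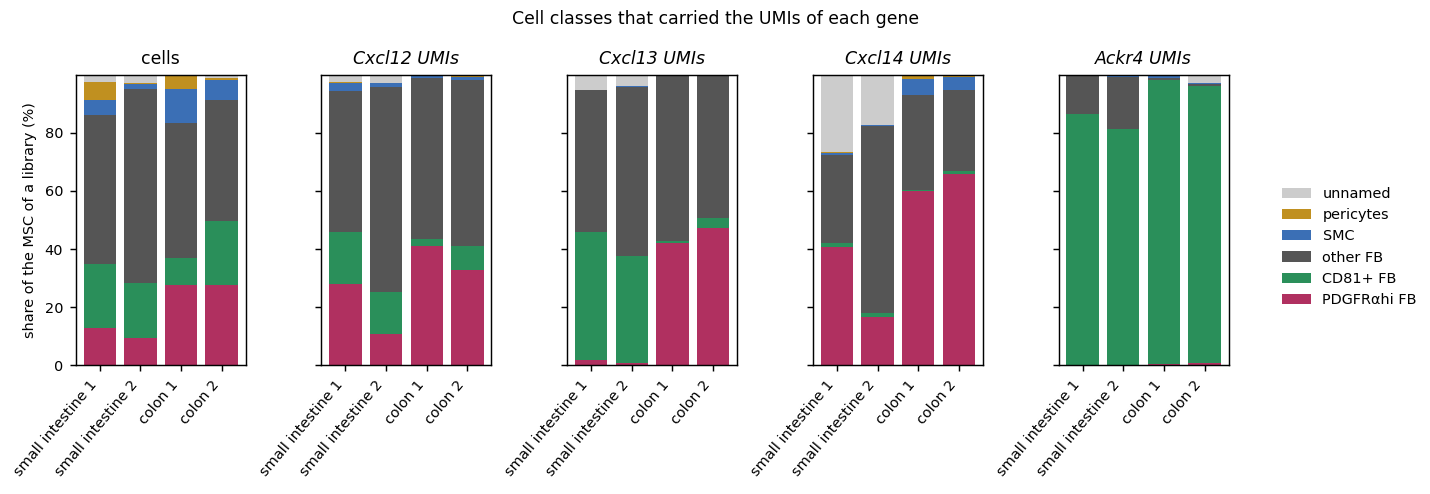
Share (%) of the MSC and of the *Cxcl12*, *Cxcl13*, *Cxcl14* and *Ackr4* UMIs of each library that fell in each class. CD81+ FB held over 80% of *Ackr4* UMIs in every library, and PDGFRαhi FB held 42.2% and 47.2% of *Cxcl13* UMIs in colon.

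Among clusters, *Cxcl13* was uneven within a class. In small intestine the highest level in a tested class was in an other FB cluster led by *Mmp10*, *Wnt4* and *Cxcl14*, at 440.0 and 372.4 CPM, and its CD81+ FB cluster followed. The remaining other FB clusters of small intestine had 72.7 to 169.4 CPM. In colon the PDGFRαhi FB formed a cluster led by *Wif1* and *Bmp3*, at 65.5 and 51.6 CPM, and one led by *Dmp1*, *Il1rl1* and *Nrg1*, at 254.8 and 204.4 CPM. Both stood above the single small intestinal PDGFRαhi FB cluster in both libraries. Of the colonic other FB clusters, the one with the most *Igkc* had 344.3 and 97.5 CPM, so its replicates lay far apart. An unnamed small intestinal cluster led by interferon genes such as *Cxcl9* and *Ifit3* had 536.7 and 237.0 CPM. All unnamed cells of small intestine replicate 1 numbered 36, so the first value rests on few cells.

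**Figure D4:**
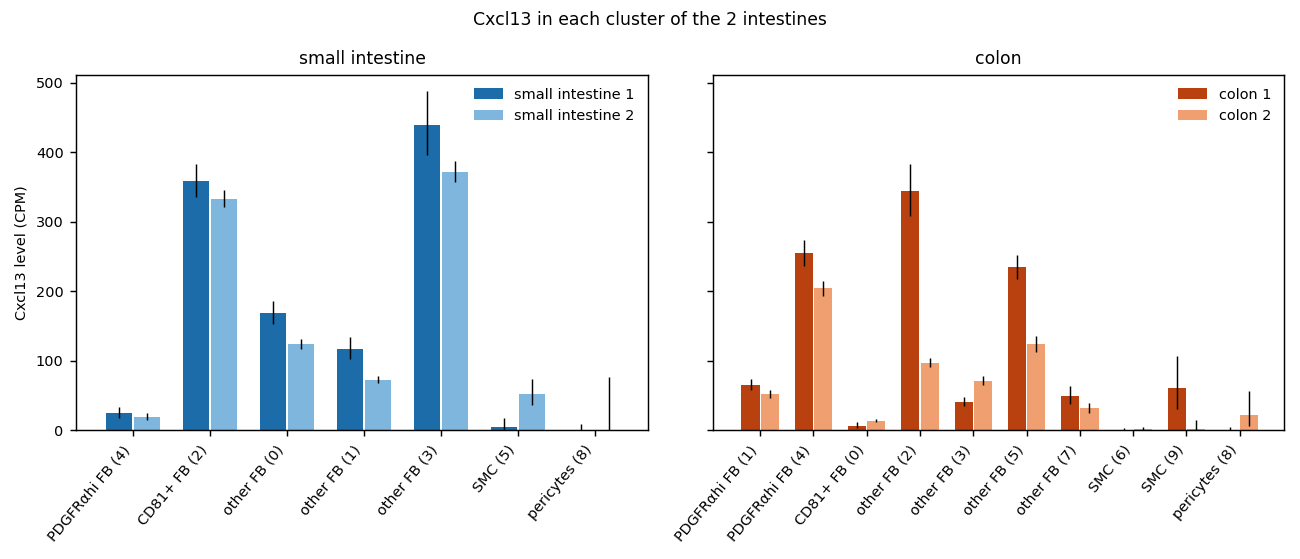
*Cxcl13* level (CPM, bars from 0, with 95% exact Poisson intervals) in each named MSC cluster of the 2 intestines, one bar per library. The small intestinal CD81+ FB had 358.9 and 333.5 CPM and the colonic ones 6.45 and 13.4 CPM.

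CD81+ FB hold cells with *Pi16*, a gene of adventitial FB, and cells with *Grem1*, which encodes a BMP antagonist. Cells with a *Pi16* UMI made up 30.7% and 13.4% of small intestinal and 43.8% and 47.1% of colonic CD81+ FB, a split chosen after the data were seen. In cells with *Pi16* the *Cxcl13* level was 190.6 and 96.9 CPM in small intestine against 4.16 and 8.73 CPM in colon. In cells with *Grem1* and no *Pi16* UMI it was 460.6 and 402.7 against 10.6 and 19.6 CPM. Small intestinal cells were thus above colonic cells within each kind, while the *Grem1* kind was the higher in all 4 libraries. *Cxcl12* was also higher in the *Grem1* kind in all 4 (1032, 645, 1366 and 637.1 against 656.6, 372.0, 427.4 and 266.7 CPM). *Ackr3* was higher in the *Pi16* kind in all 4 libraries, at 84.8 and 87.8 against 28.0 and 22.6 CPM for the small intestine, then 395.5 and 148.3 against 141.5 and 75.7 CPM for the colon. *Ackr4* showed no such order, lower in the *Pi16* kind in 3 of 4 libraries. These are descriptions, without a test.

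**Figure D5:**
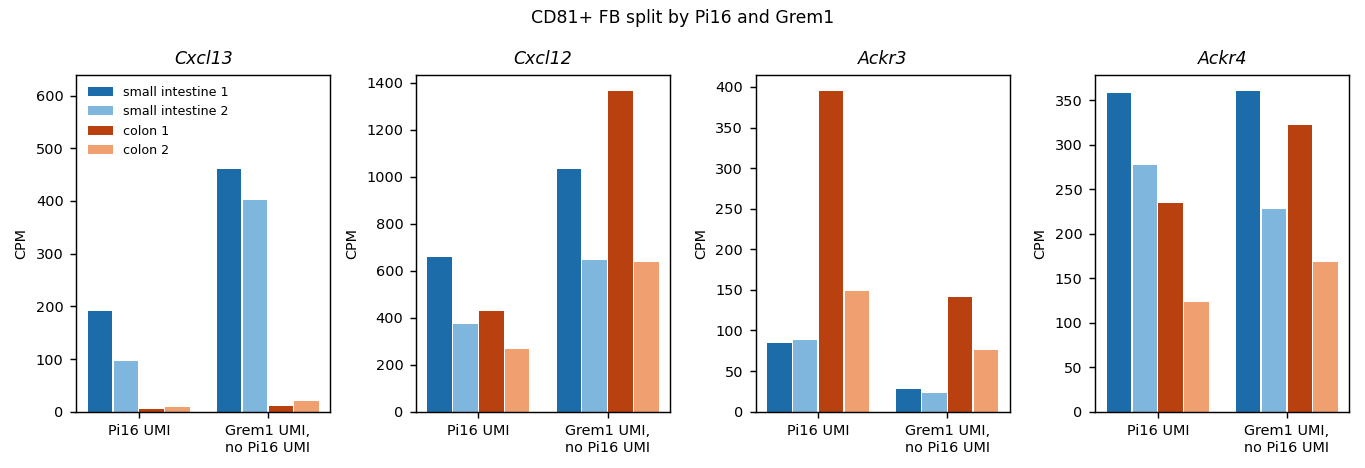
Level (CPM, bars from 0) of 4 genes in CD81+ FB with a *Pi16* UMI and in those with a *Grem1* but no *Pi16* UMI, one bar per library. Small intestinal *Cxcl13* stood above colonic *Cxcl13* in both kinds, and *Ackr3* was higher in the *Pi16* kind in all libraries.

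*Cxcl12* was found in every MSC class, and its level moved more with the replicate number than with the intestine in PDGFRαhi and CD81+ FB. In PDGFRαhi FB it was 2378 and 1165 CPM in small intestine against 3457 and 1174 CPM in colon (log2FC 0.50, SE 0.61, adjusted p = 0.909). In other FB it was 1210 and 873.1 against 3245 and 1310 CPM (1.06, SE 0.48, adjusted p = 0.533). In CD81+ FB it was 894.2 and 586.1 against 863.3 and 394.9 CPM (−0.40, SE 0.46, adjusted p = 0.908), and in pericytes 110.0 and 392.1 against 271.6 and 361.8 CPM (0.54, SE 0.62, adjusted p = 1.00). Replicate 1 was above replicate 2 in all 3 FB classes of both intestines. The replicates also differed in UMIs per cell and in the Cell Ranger version, and the part of these in the levels was not tested. Within colonic PDGFRαhi FB, the *Wif1* cluster had 5073 and 1991 CPM and the *Dmp1* cluster 1348 and 416.0 CPM, the reverse of the order for *Cxcl13*.

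The intestine effect on *Cxcl12* differed between classes by less than the fold limit. It was lower in PDGFRαhi FB than in other FB by a log2 difference of −0.54 (SE 0.17, adjusted p = 0.0345), and lower in CD81+ FB than in other FB by −1.39 (SE 0.13, adjusted p = 1.44e-06). The second contrast was chosen after the values had been seen.

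In SMC *Cxcl12* fell, from 797.3 and 626.8 CPM in small intestine to 225.6 and 221.2 CPM in colon. The groups did not overlap, and the log2FC was −1.66 (SE 0.27, adjusted p = 0.0469). *Cxcl14* rose there from 30.9 and 29.6 CPM to 159.9 and 145.6 CPM (2.34, SE 0.29, adjusted p = 0.0256). FB transcripts in SMC were also lower in colon, the direction of *Cxcl12* and the opposite of *Cxcl14*. The summed other FB markers were 12219 and 10730 CPM in small intestine against 1922 and 1868 CPM in colon. Of these, *Thy1* was at 0 in both small intestinal libraries, and 0 of 6 markers were at 0 in colon. The part of FB RNA in the *Cxcl12* and *Cxcl14* changes was not tested. Both calls were lost without either small intestinal library: without replicate 1 *Cxcl12* gave −1.5 (adjusted p = 0.182) and *Cxcl14* 2.36 (adjusted p = 0.0901), and without replicate 2 they gave −1.81 (adjusted p = 0.0999) and 2.32 (adjusted p = 0.0944). Under the gate by cell, *Cxcl12* gave −1.09 (adjusted p = 0.260) and *Cxcl14* −0.10 (adjusted p = 0.984), and with doublets kept *Cxcl12* gave −1.07 (adjusted p = 0.173). With at least 1000 genes per cell *Cxcl12* gave −1.66 (adjusted p = 0.0541).

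*Cxcl14* was a gene of PDGFRαhi FB and of some other FB. Its level in PDGFRαhi FB was 361.8 and 193.4 CPM in small intestine against 520.4 and 420.4 CPM in colon, and the groups did not overlap (log2FC 0.90, SE 0.38, adjusted p = 0.436). In other FB it was 78.2 and 83.9 against 198.5 and 113.4 CPM (0.89, SE 0.30, adjusted p = 0.369). In CD81+ FB it was only 5.85 to 10.3 CPM in the 4 libraries (0.30, SE 0.37, adjusted p = 0.921). In pericytes it was 4.78 and 0 CPM (2 and 0 UMIs) in small intestine and 100.9 and 93.2 CPM (75 and 17 UMIs) in colon, a difference that was not called (4.44, SE 0.82, adjusted p = 0.425) but was called without small intestine replicate 2 (4.24, adjusted p = 0.0108) or colon replicate 2 (4.48, adjusted p = 0.0203).

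Among FB and unnamed clusters, those with the most *Cxcl14* were a small intestinal cluster of cycling cells (*Top2a*, *Mki67*) that stayed unnamed, at 2669 and 1349 CPM, and the *Dmp1* cluster of colonic PDGFRαhi FB, at 779.4 and 593.3 CPM. All unnamed cells of small intestine replicate 1 numbered 36, so the 2669 CPM rests on few cells. The small intestinal other FB cluster with the most *Cxcl13* also had *Cxcl14*, at 319.1 and 309.4 CPM, against 13.7 to 36.1 CPM in the remaining other FB clusters of small intestine. *Cxcl13* and *Cxcl14* were thus high together there and in the *Dmp1* cluster, but *Cxcl13* was also high in small intestinal CD81+ FB, which had almost no *Cxcl14*.

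Within single cells the same pairs could be seen. Of small intestinal other FB with a *Cxcl14* UMI, 43.9% and 37.0% also had a *Cxcl13* UMI, against 25.5% and 20.4% of the whole class, and with cells thinned to 1000 UMIs the shares were 30% and 21% against 10.9% and 11.1%. In colonic other FB the order was the other way (15.1% and 9.56% against 18.6% and 11.4%). In small intestinal CD81+ FB a *Cxcl13* UMI was found in 45.5% and 32.0% of cells with an *Ackr4* UMI and in 43.6% and 34.4% of the whole class. Cells of 1 library are not replicates, and these shares were not tested.

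*Ccl19* was rare. Small intestinal pericytes of replicate 1 had 471.2 CPM (197 UMIs, all of them in 11 of 80 cells). Those of replicate 2 had 20.6 CPM (1 UMI in 30 cells, 95% counting interval 0.522 to 115.0 CPM), and colonic pericytes had 67.2 CPM (50 UMIs) and 0. The intestines overlapped, and the replicates differed more than the intestines (log2FC −2.77, SE 1.40, adjusted p = 1.00). Leaving out small intestine replicate 2 gave −3.56, and leaving out colon replicate 1 gave −8.91. In the latter the remaining colon library had 0 UMIs, so the counts do not fix the size of the fold. The range over the 4 libraries left out reached 1.08, so single libraries decided the pericyte value. In CD81+ FB *Ccl19* was 22.7 and 3.66 CPM in small intestine against 1.93 and 1.99 CPM in colon (−2.81, SE 0.98, adjusted p = 0.385), called only without small intestine replicate 2 among the libraries left out (−3.65, adjusted p = 0.00834). In other FB it was 5.38 and 1.34 against 0.776 and 0.193 CPM (−2.91, SE 1.06, adjusted p = 0.427), and it was called with the replicate number as a block, as given below. SMC had 1 UMI in all, and in PDGFRαhi FB it had 5, 2, 0 and 0 UMIs and was not tested. Mouse *Ccl19* has near-identical copies, and reads that fit several genes may have been lost or split, so its counts are uncertain.

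*Ackr4*, the scavenger of CCL19, CCL21 and CCL25, was a gene of CD81+ FB in both intestines. Its level there was 351.8 and 234.8 CPM in small intestine against 269.5 and 130.8 CPM in colon. The intestines overlapped (log2FC −0.72, SE 0.44, adjusted p = 0.729). CD81+ FB held 86.1% and 81.0% of the *Ackr4* UMIs of small intestinal MSC and 97.7% and 95.2% of those of colonic MSC. *Ackr4* and the other 6 genes were left out of the clustering, so this class was not formed with them.

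In other FB *Ackr4* fell from 27.5 and 16.1 CPM in small intestine (143 and 431 UMIs) to 0.332 and 0.627 CPM in colon (3 and 13 UMIs). The groups were far apart, with a log2FC of −5.40 (SE 0.52, adjusted p = 0.0417). The call was lost without small intestine replicate 1 (−5.00, adjusted p = 0.0534) or replicate 2 (−5.76, adjusted p = 0.0779), under the gate by cell (−2.74, adjusted p = 0.354) and with doublets kept (−3.04, adjusted p = 0.382). The small intestinal UMIs came from the clusters led by *Dkk2* and by *Cxcl2* (18.0 to 34 CPM), while the *Mmp10* cluster had 0 and 1.17 CPM. Other FB of small intestine also carried more of the CD81+ FB markers than those of colon (3278 and 2489.5 against 2151 and 1384 CPM), and whether CD81+ FB within the class held the *Ackr4* UMIs was not tested.

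The intestine effect on *Ackr4* was higher in CD81+ FB than in other FB by 4.43 (SE 0.30, adjusted p = 1.68e-07, a contrast chosen after the values were seen) and in PDGFRαhi FB than in other FB by 4.56 (SE 0.80, adjusted p = 0.000181). PDGFRαhi FB had only 2, 3, 2 and 10 *Ackr4* UMIs, at or near the limit of detection. This second difference turned to −0.45 with doublets kept and to −0.63 under the gate by cell, and it was not called without colon replicate 2 (4.26, adjusted p = 0.123). Pericytes had 0 *Ackr4* UMIs in all 4 libraries.

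*Ackr3*, the scavenger of CXCL12, was at or near 0 in small intestinal PDGFRαhi FB and present in all other MSC classes. PDGFRαhi FB had 0 and 12 UMIs in small intestine (0 CPM, where a count of 0 allows up to 1.97 CPM, and 3.95 CPM) and 376 and 451 in colon (59.5 and 34 CPM). The groups did not overlap, yet the change was not called (log2FC 4.39, SE 0.86, adjusted p = 0.0927). With the replicate number as a block it was called, as given below. DESeq2 did call it (4.44, adjusted p = 1.54e-06), as did edgeR without colon replicate 1 (4.03, adjusted p = 0.0407) or replicate 2 (4.66, adjusted p = 0.0481). The effect in PDGFRαhi FB was above that in other FB by 3.33 (SE 0.66, adjusted p = 0.0368), a call lost with DESeq2 (4.31, adjusted p = 0.146), joint clustering (3.18, adjusted p = 0.0798), doublets kept (1.42, adjusted p = 0.671) and the gate by cell (0.46, adjusted p = 0.918).

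In the other classes *Ackr3* was higher in colon on average, and edgeR with all 4 libraries called none of these differences. CD81+ FB had 51.3 and 35.2 CPM in small intestine against 269.5 and 124.6 CPM in colon (2.03, SE 0.46, adjusted p = 0.142), so that both colon libraries stood above both small intestinal ones. This was called without colon replicate 2 (2.49, adjusted p = 0.0225), by DESeq2 (2.04, adjusted p = 0.00159), without the low-count filter (2.04, adjusted p = 5.67e-07) and with the replicate number as a block (1.95, adjusted p = 1.49e-06), and not under the other 8 alternatives (adjusted p 0.0890 to 0.333). The effect there was above that in other FB by 1.14 (SE 0.14, adjusted p = 2.14e-05, a contrast chosen after the values were seen). Other FB had 95.1 and 68.1 against 228.6 and 98.7 CPM (0.94, adjusted p = 0.547). Pericytes had 78.9 and 61.9 against 255.5 and 104.1 CPM (1.35, adjusted p = 1.00), and SMC had 107.1 and 42.0 against 202.5 and 104.5 CPM, which overlapped (1.08, adjusted p = 0.472). Set side by side, colonic *Ackr3* was lowest in PDGFRαhi FB, the class with the highest *Cxcl12* on average in both intestines, and the *Cxcl12* levels of PDGFRαhi FB and other FB overlapped.

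*Ackr1* was nearly absent from MSC, at most 23.8 CPM in any FB class. CD81+ FB had 9.0 and 12.6 CPM in small intestine against 11.6 and 23.8 CPM in colon (0.63, SE 0.40, adjusted p = 0.743), with overlap. Other FB had 3.27 and 3.69 against 2.66 and 8.05 CPM (0.62, SE 0.62, adjusted p = 0.838), and PDGFRαhi FB had 0, 2, 2 and 21 UMIs. The contaminating endothelial cells, where ACKR1 is known to be made, had 145.2 CPM in small intestine replicate 1, 7.77 CPM in colon replicate 1 and 312.0 CPM in the 23 cells of colon replicate 2. The same cells had *Ackr3* at 331.9, 265.3 and 156.0 CPM, and lymphatic endothelial cells had *Ackr3* at 93.3 to 553.8 CPM in the 3 libraries with at least 20 of them.

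Genes that act with the members were described from fixed lists. Of all genes tested, 1.55% were called in PDGFRαhi FB, 0.919% in CD81+ FB, 0.915% in other FB and 1.81% in SMC. A count of 0 in a short list is near such shares. Of 8 further homeostatic ligands, 4 were tested in PDGFRαhi FB and 1 was called. This was *Cxcl16*, a membrane-bound ligand of CXCR6, at 329.7 and 277.1 CPM in small intestine against 43.4 and 29.6 CPM in colon (−2.92, adjusted p = 0.0264). It was also 1 of 2 tested in SMC, where it fell from 159.5 and 210.0 to 22.1 and 15.3 CPM (−3.31, adjusted p = 0.0171), beside the fall in the FB markers of this class given above. Small intestinal other FB had *Cxcl16* at 272.5 and 273.6 CPM, and the part of FB RNA in the SMC value was not tested. In CD81+ and other FB 0 of 3 and 0 of 5 were called. The median log2 fold change of the tested ligands in PDGFRαhi FB was −1.19, beside 0.01 over all genes.

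Among the enzymes and proteoglycans that cut or present chemokines, *Dpp4*, a protease that inactivates CXCL12, rose in CD81+ FB from 0.391 and 0.488 CPM to 11.6 and 8.36 CPM (4.23, adjusted p = 0.0352). It was the only 1 of 7 called there (0.919% of all genes), with 0 of 6 in PDGFRαhi FB (1.55%) and 0 of 6 in other FB (0.915%). Of 8 genes of lymphotoxin and non-canonical NF-κB signalling, which drives *Cxcl13* in lymphoid stroma, 7 were tested in each FB class and 0 were called. A count of 0 is near the shares of all genes just given. *Ltbr*, the lymphotoxin receptor, was at 89.6 to 156.0 CPM in small intestinal and 82.2 to 180.1 CPM in colonic PDGFRαhi FB, and at 48.5 to 58.7 and 44.5 to 78.0 CPM in CD81+ FB. Its levels overlapped between the intestines in both classes.

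Of 14 genes of lymphoid stroma, 8 were tested in each FB class and 0 were called, beside 0.915% to 1.55% of all genes. In SMC 2 of 7 were called, both lower in colon, beside 1.26% of all genes in that direction. These were the adhesion molecules *Icam1* (280.8 and 158.6 against 6.52 and 23.9 CPM, −3.80, adjusted p = 0.0492) and *Vcam1* (69.0 and 108.9 against 6.52 and 13.7 CPM, −3.11, adjusted p = 0.0427), beside the FB markers given above for this class. *Tnfsf13b*, which encodes the B cell survival factor BAFF, was at 78.4 and 59.6 CPM in small intestinal and 215.5 and 156.6 CPM in colonic other FB (1.38, adjusted p = 0.138). *Bst1* and the receptors *Cxcr4*, *Cxcr5* and *Ccr7* had at most 5 UMIs in any MSC class and library. *Ccl21a*, the ligand CCL21, had 109 UMIs in pericytes of small intestine replicate 1, the library with most *Ccl19*, and is also a multicopy gene.

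Genes with the most similar pattern over 31 class profiles (classes with at least 20 cells in a library) were found by Pearson correlation of log2 CPM. The profiles share libraries and depth, and the correlations are descriptions. For *Cxcl13* they were *Msc* (r = 0.852), *Tnfsf13b* (0.844) and *Mmp19* (0.832), and for *Cxcl12* they included *Pltp* (0.893) and *Igfbp7* (0.861). For *Cxcl14* they were *Aard* (0.884), *Bmp5* (0.858) and *Col6a4* (0.849), of which *Bmp5* marks PDGFRαhi FB. For *Ackr4* they were *Adamtsl3* (0.871), *Ccdc81* (0.868) and *Glrb* (0.852), and for *Ackr3* the closest was *Fzd4* (0.80). The rarer genes had lower values, led by *Gm2564* for *Ccl19* (0.791) and *Ablim1* for *Ackr1* (0.773).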

How the data were processed

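Single-cell RNA-seq was performed on sorted MSC, with 2 libraries per intestine. The authors deposited unnormalized UMI counts for each gene in each barcode, made with Cell Ranger (3.0.2 for replicates 1 and 3.1.0 for replicates 2) on mm10. Droplet kits were 3' or 5', and which library had which is not given in the sources used here. The 2 libraries of a group came from separate experiments, whose animals were pooled.

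A barcode had to have 500 genes or more, 1000 UMIs or more and no more than 10% mitochondrial UMIs. Doublets (6, 913, 32 and 580) were removed with scrublet in scanpy 1.11.5. These were 0.327% of small intestine replicate 1 and 1.32% to 5.98% of the others, and the reason for the low share was not tested. Each intestine was integrated and clustered in Seurat 5.3.0 (R 4.3.3, 2000 variable genes, 30 components, resolution 0.5) after the members and pathway genes had been left out of the features. Contaminating clusters were removed and the clustering repeated. Names went by the class whose markers had the highest mean log2 fold over all other cells, if this score was at least 0.25 and enough of those markers were detected. A colonic cluster of 1996 cells scored highest for plasma cells (0.45) with only 2 of their markers detected, and was placed in other FB. FB clusters without a name became other FB, and clusters under 2% of cells without own markers stayed unnamed.

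UMIs were summed per library and class and tested over all genes with edgeR 4.0.16 (filterByExpr, TMM, robust quasi-likelihood, Benjamini-Hochberg). An exact permutation test of 2 against 2 libraries cannot go below 0.3333 and was not used. Changes simulated at a log2 fold change of 3 were recovered in 94% to 100% of 200 genes per class. DESeq2 1.42.0, its size factors, no filter, each library left out, the replicate block, joint clustering, the gate by cell, at least 1000 genes per cell and kept doublets were the alternatives. Intervals are exact (Poisson or Clopper-Pearson, 95%), and limits for a count of 0 use 3 counts.

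The named genes are the 7 members, list genes past both limits, *Bst1*, *Ltbr*, *Cxcr4*, *Cxcr5*, *Ccr7* and *Ccl21a*, and the 3 genes most like each member, of which 1 is not reported here. *Tnfsf13b*, the *Rgs5* and *Igkc* clusters and the *Pi16* and *Grem1* split were chosen after their values were seen. The members, gene lists and alternatives were chosen with earlier results of these data known. The symbol *Ccl19* has 2 gene IDs in the count tables, of which the second had 0 UMIs in every class.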

Additional observations from a re-analysis of the deposited data

Results flagged for a closer look

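These results are listed because a test of the difference itself found that the intestine effect (log2 fold change of colon over small intestine) was not the same in a pair of classes. *Cxcl13* had the widest gap, 7.84 between PDGFRαhi FB and CD81+ FB, with 3.54 between PDGFRαhi FB and other FB and −4.13 between CD81+ FB and other FB. *Ackr3* had a difference of 3.33 between PDGFRαhi FB and other FB, where small intestinal PDGFRαhi FB had 0 and 12 UMIs. *Ackr4* had differences of 4.56 between PDGFRαhi FB and other FB and 4.43 between CD81+ FB and other FB, of which the former rests on 2, 3, 2 and 10 UMIs in PDGFRαhi FB. The contrasts with CD81+ FB were chosen after the values had been seen and were not run under the alternatives. The outcomes share libraries, since all classes come from the same 4. What sets the differences was not tested.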

How the results depend on the processing

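The *Cxcl13* difference kept its direction in PDGFRαhi FB, in CD81+ FB and in the test of PDGFRαhi FB against other FB under all alternatives run. Without 1 library at a time it was 2.66 to 2.94 in PDGFRαhi FB, −5.89 to −4.81 in CD81+ FB, −1.01 to −0.44 in other FB, −1.86 to −1.06 in all FB except PDGFRαhi FB, and 3.26 to 3.81 for the difference between PDGFRαhi FB and other FB. Calls were lost with the gate by cell (1.18, −1.56 and 2.66 for PDGFRαhi FB, CD81+ FB and that difference) and with doublets kept (2.12 in PDGFRαhi FB and 2.79 for the difference). The cause was not tested. Over all results for the 7 genes, 422 alternatives kept direction and side of the limits, 23 lost a call, 17 gained one and 19 turned direction.

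The labels give the groups the same replicate numbers and each number 1 Cell Ranger version, without saying that a number marks a shared experiment. Same-numbered libraries deviated together (correlations 0.477 to 0.772 over 2 pairs). With the replicate block, *Ackr3* in PDGFRαhi FB (4.18, adjusted p = 0.000834) and CD81+ FB (1.95, adjusted p = 1.49e-06) and *Ccl19* in other FB (−2.82, adjusted p = 0.00334) gained a call, and no member lost one. Genes called under the block rose to 942 in PDGFRαhi FB, 530 in CD81+ FB, 756 in other FB, 575 in all FB except PDGFRαhi FB, 624 in SMC and 6 in pericytes, from 178, 105, 118, 2, 171 and 0. In the same order, DESeq2 called 579, 241, 455, 414, 303 and 3, and no filter gave 612, 451, 339, 242, 611 and 20. The gate called 26 in PDGFRαhi FB, 0 in CD81+ FB, 23 in all FB except PDGFRαhi FB and 12 in SMC. In all FB except PDGFRαhi FB, DESeq2 size factors gave 26, at least 1000 genes 11, doublets kept 16, joint clustering 0 and the stricter other FB 21, and doublets kept gave 109 in SMC. Leaving out a library gave 0 to 573 in PDGFRαhi FB, 86 to 154 in CD81+ FB, 0 to 164 in other FB, 0 to 63 in all FB except PDGFRαhi FB, 70 to 523 in SMC and 7 to 27 in pericytes.

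Some values turned direction. Without 1 library at a time, *Cxcl12* ran from −0.36 to 1.08 in PDGFRαhi FB, from −1.04 to 0.057 in CD81+ FB and from −0.13 to 1.49 in pericytes, *Ackr1* from −0.060 to 1.00 in CD81+ FB, −0.49 to 1.22 in other FB and −0.61 to 1.25 in all FB except PDGFRαhi FB, *Ccl19* from −8.91 to 1.08 in pericytes, and the *Cxcl14* difference between PDGFRαhi FB and other FB from −0.37 to 0.63. With doublets kept, *Cxcl14* was −0.48 in CD81+ FB, and the differences of *Ackr1* and *Ackr4* were −0.20 and −0.45. Under the gate, *Cxcl12* was 0.49 in CD81+ FB and −0.16 in pericytes, *Cxcl14* was −0.10 in SMC, where it had been called, and the differences of *Ackr1*, *Ackr4* and *Cxcl14* were −0.78, −0.63 and −0.19. Depth limits *Ackr1*, *Ccl19* and the *Ackr4* of PDGFRαhi FB, each near 0 UMIs in some class.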

Other observations

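Samples and genes outside the comparisons held a few values of the same genes. The interstitial cells of Cajal removed from the colon had *Ackr4* at 25.2 and 46.2 CPM (5 and 11 UMIs), and a small unnamed colonic cluster led by *Ptn* and *Smoc2* had *Ackr4* at 90.8 CPM and *Cxcl12* at 554.1 CPM in replicate 2.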
